A study of Mus musculus with 34 samples.

Results

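Kainate was compared with saline in the hippocampus and in the neocortex of young mice, and the quantity examined was the difference between the 2 regional effects: kainate minus saline in the hippocampus, minus kainate minus saline in the neocortex. It used the 22 arrays of saline and kainate mice, chosen by their titles, out of 34 arrays in the series. The other 12 arrays, from nicotine-treated mice, helped to estimate the spread and to set the limit on low signals. Male mice had received 3 intraperitoneal injections on postnatal day 23, 2 h apart, of kainate at 15 mg/kg or of saline, and the mice still alive on postnatal day 30 were dissected. Each group had 1 array per mouse and region: 6 saline and 5 kainate arrays of neocortex, and 6 saline and 5 kainate arrays of hippocampus. All mice had the same sex, age and injection schedule, no genetic change was stated for any group, and the strain is not given in the sources used here. The kainate groups hold only mice that survived the injections. The mice supplied tissue of both regions, but no label links the arrays of one animal, and the arrays were treated as independent.

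Kainate activates ionotropic glutamate receptors and provokes limbic seizures. The hippocampus, with its pyramidal cells of the CA fields and the granule cells of the dentate gyrus, is known as a seizure-prone region in this model. After neuronal injury, microglia, the resident macrophages of the brain, raise genes for phagocytosis, complement and antigen presentation, and astrocytes raise intermediate filament and acute-phase genes. RNA of whole tissue pieces was measured, so fewer cells of a type and less RNA per cell cannot be told apart.

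Of 12488 probe sets, 8695 with a mean signal above 129.7 units, the 30th percentile, were tested after control probe sets were left out. Array medians lay between 376 and 438.5 signal units, and those of the kainate hippocampus (403 to 438.5) lay above those of the saline hippocampus (381 to 391). Those of the nicotine hippocampus (395.2 to 434.55) did so as well. The tissue labels matched their markers: the summed signal of 8 hippocampus-defining genes was 14811 to 18207 in the saline hippocampus and 4453 to 5086 in the saline neocortex, while that of 8 neocortex-defining genes was 10196 to 12434 and 25391 to 30254. By their spiked control probe sets the arrays of each region were cut into 3 clusters, a chosen number, and each held all treatments. No array was left out, but kainate hippocampus replicate 3 had the lowest signal of its group for 32 of the 51 genes called higher only in the hippocampus.

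The difference between the regional kainate effects passed the test at 69 of the 8695 probe sets (0.794%; limma, Benjamini-Hochberg adjusted p under 0.05), and 781 (8.98%) had an unadjusted p under 0.05. Of the 69, 63 had the higher effect in the hippocampus (0.725% of those tested) and 6 the lower (0.069%), for 54 and 6 named genes. Of the 63, 5 probe sets had no single gene symbol and are not described below. They include the probe set with the lowest adjusted p of all, with a difference of 1.94 ± 0.18 (limma adjusted p = 5.67e-09). In the hippocampus itself, kainate differed from saline at 338 probe sets (3.89%), with 211 higher (2.43%) and 127 lower (1.46%). The neocortex had 1 called probe set (0.0115%), for Gfap, with 446 at an unadjusted p under 0.05 (5.13%). A regional difference was therefore called for 62 of the 211 hippocampal increases (29.4%) and for 6 of the 127 decreases (4.72%). Centring each array on its median changed the balance to 35 higher and 12 lower differences, 74.5% higher against 91.3%, and moved the median difference over all probe sets to -0.10. With control clusters as a block, 77 were higher and 25 lower. With only the largest control cluster of each region, 12 arrays chosen after the data were seen, 32 differences were called, 26 of them among the 69.

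Responses were sorted by which contrasts passed. A response called only in the hippocampus, with the regional difference also called, was found at 67 probe sets, 61 higher and 6 lower. None was confined in this way to the neocortex by the limma fit. One was called in both regions with unequal size, for Gfap, and another, for Gadd45g, passed for the difference with neither region called. No probe set was called in opposite directions in both regions. At 270 further probe sets the hippocampus was called while the difference was not (149 higher, 121 lower), so these are neither regional nor shared on the test used. The undecided count was 178 without kainate hippocampus replicate 4 and 511 with median centring, which gave 558 hippocampal calls, and that of opposite point estimates, 30 of the 69, was 18 without kainate hippocampus replicate 5. The 6 lower differences became 11 without saline neocortex replicate 1 or kainate hippocampus replicate 3, and the single neocortical call became 2, 3 and 4 without saline neocortex replicate 3, kainate neocortex replicate 4 and kainate hippocampus replicate 3.

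**Figure D1:**
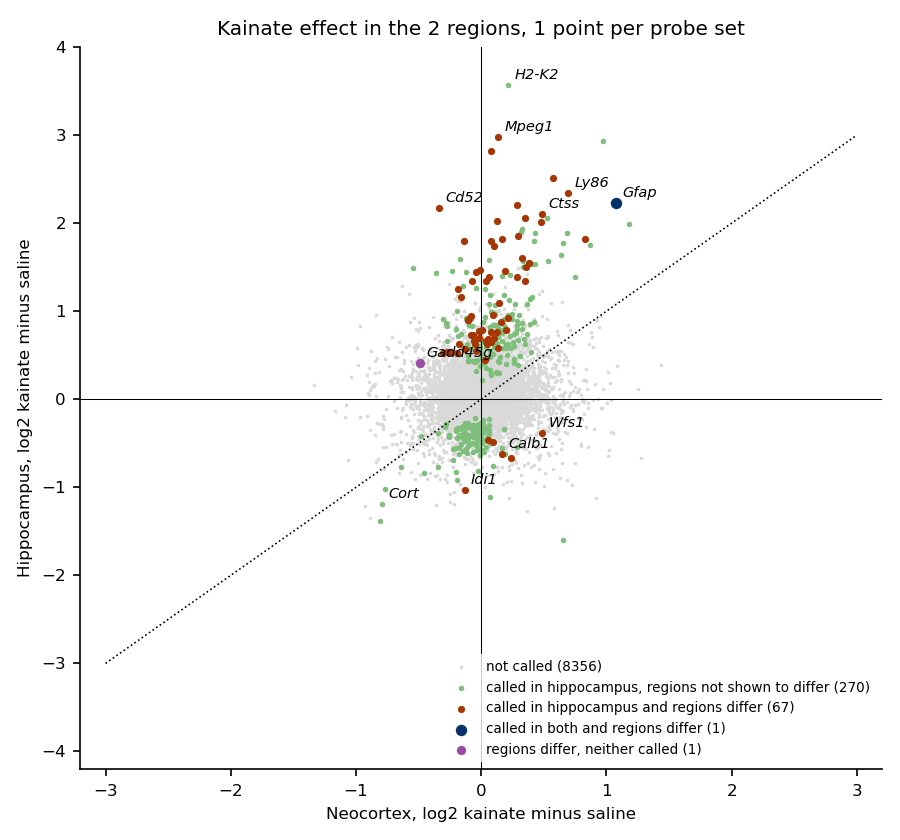
Kainate effect (log2 kainate minus saline) in the neocortex (horizontal axis) and hippocampus (vertical axis), 1 point per tested probe set, coloured by class with the number in brackets; the dotted line marks equal effects. The 61 higher and 6 lower hippocampus-only points have neocortical effects from -0.34 to 0.83, against hippocampal effects of up to 2.98, and the brightest Gfap probe set is the single one called in both regions.

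Among the 61 hippocampus-only increases the median effect was 0.96 on the log2 scale in the hippocampus and 0.064 in the neocortex; for the 6 decreases the medians were -0.56 and 0.13. These medians, like the counts after them, result in large part from the sorting, which used the same arrays, and nothing is read from them. The 95% interval of the neocortical effect included 0 at 54 of the 67 probe sets. Its far end, in the hippocampal direction, was under 50% of the hippocampal effect at 65 of the 67. In the hippocampus, kainate and saline arrays did not overlap at 62 of the 67, 58 above and 4 below (2.28% and 1.18% of all tested probe sets). In the neocortex, 3 of the 67 were separated in the same direction (0.299% above and 0.253% below).

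Mpeg1 and Cd52, of the microglia and macrophage list, were among the 3 largest called differences, with Ifit3 of the interferon list between them. Counts of genes in each list below are to be read against all 6430 tested genes, each by its brightest probe set: 159 were higher (2.47%) and 110 lower (1.71%) in the kainate hippocampus, and the difference was called higher for 53 (0.824%) and lower for 6 (0.0933%). Of 21 tested list members, 15 were higher in the kainate hippocampus and none lower, and 8 differed between regions, all with the higher effect in the hippocampus. The list's median effect was 1.35 in the hippocampus and 0.13 in the neocortex, and the median difference was 1.10, against -0.0073 over all tested genes. Summed over all 31 list members on the array, tested or not, the signal was 16231 to 17261 on saline hippocampus arrays. On kainate hippocampus arrays it was 34319 to 48220. In the neocortex the same sums were 15944 to 17405 and 17326 to 19482. How far more microglia, or more RNA per microglial cell, take part in the results below was not tested. Another 10 list members, among them Adgre1, Itgam and Ptprc, lay below the signal limit. For this and the other lists, that limit counted the kainate hippocampus arrays, so a member raised only there could pass it.

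Mpeg1, which encodes a pore-forming protein of macrophages, had the largest called difference. In replicate order, as throughout, its signals on the 5 kainate hippocampus arrays were 6031, 7745, 3822, 5370.1 and 5729.7, against a lowest, median and highest saline value of 441, 646 and 1078. On kainate neocortex arrays they were 850.3, 742, 521, 905 and 735, against 382, 734 and 991 for saline. The hippocampal groups were far apart and the neocortical groups overlapped. The effects were 2.98 ± 0.21 (log2 ± SE) and 0.13 ± 0.21, and the difference was 2.84 ± 0.30 (95% interval 2.23 to 3.45, limma adjusted p = 6.96e-08).

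Tyrobp, the signalling adaptor of several microglial receptors, reached 4261, 3827, 2377, 2843 and 4318 units in the kainate hippocampus against 638, 822 and 1042 (lowest, median, highest) with saline. In the neocortex the kainate values 1225, 788, 775, 1099 and 846 overlapped saline values of 619, 715 and 874. The difference of the effects was 1.71 ± 0.27 (limma adjusted p = 0.000135).

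Cd52, a small surface glycoprotein of leukocytes, was at 938, 945, 545, 860.0 and 1011 in the kainate hippocampus and at 66.1, 204 and 267 with saline. Its neocortical values were 173, 235, 145, 247 and 275 with kainate and 165, 283 and 420.4 with saline, so the point estimates ran in opposite directions (2.17 ± 0.34 and -0.34 ± 0.34), with only the hippocampal one called. The difference was 2.51 ± 0.48 (limma adjusted p = 0.00209).

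Laptm5, a lysosomal membrane protein of blood-derived cells, varied little between kainate arrays. Kainate hippocampus arrays read 5669, 5531, 4645, 4743 and 5549, saline ones 1780.0, 2102 and 2216. The neocortical readings of 2334, 2285, 1957, 2403 and 2085 overlapped the saline range (1756, 2205 and 2454). The difference was 1.31 ± 0.13 (limma adjusted p = 8.77e-09), although a second, dimmer probe set gave 0.72 ± 0.20 (adjusted p = 0.0973).

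Csf1r, the receptor for the growth factor on which microglia depend, was raised in the hippocampus and had neocortical arrays above saline as well. Hippocampal values were 6711, 6912, 4703, 4918 and 6443 with kainate against 1959, 2376 and 2541 with saline. Neocortical values were 2955, 2562, 2588, 2655 and 2571 against 1755, 2073 and 2519.6; the lowest kainate array lay just above the highest saline array. The neocortical effect of 0.35 ± 0.13 had an unadjusted p of 0.0103 and was not called (adjusted p = 0.862), and the regional difference of 0.99 ± 0.18 was (limma adjusted p = 0.0012). A second, dimmer Csf1r probe set gave 0.39 ± 0.35 in the hippocampus and -0.22 ± 0.35 in the neocortex. Neither effect was called, nor was its difference of 0.61 ± 0.50.

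Ly86, a partner of a Toll-like receptor family member, had hippocampal signals of 3304, 3661, 1403, 1442 and 3499 with kainate, where replicates 3 and 4 were lowest, against 289.9, 465 and 733 with saline. Its difference was 1.64 ± 0.33 (limma adjusted p = 0.00389). Cd68, a lysosomal glycoprotein of macrophages, differed by 1.26 ± 0.18 and Cyba, a subunit of the phagocyte NADPH oxidase, by 1.10 ± 0.24. The Cyba call was lost with median centring. Aif1, Cd53, Irf8, Cx3cr1, Fcgr1, Lcp1 and Cd14 were called in the hippocampus alone while their differences were not called; those of Aif1 and Cd53 were 1.53 ± 0.61 and 1.58 ± 0.48 (limma adjusted p = 0.403 and 0.168). Coro1a, Vav1 and Fcgr3 of the same list had hippocampal effects of -0.14 ± 0.12, -0.20 ± 0.46 and 0.019 ± 0.32, none of them called.

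**Figure D2:**
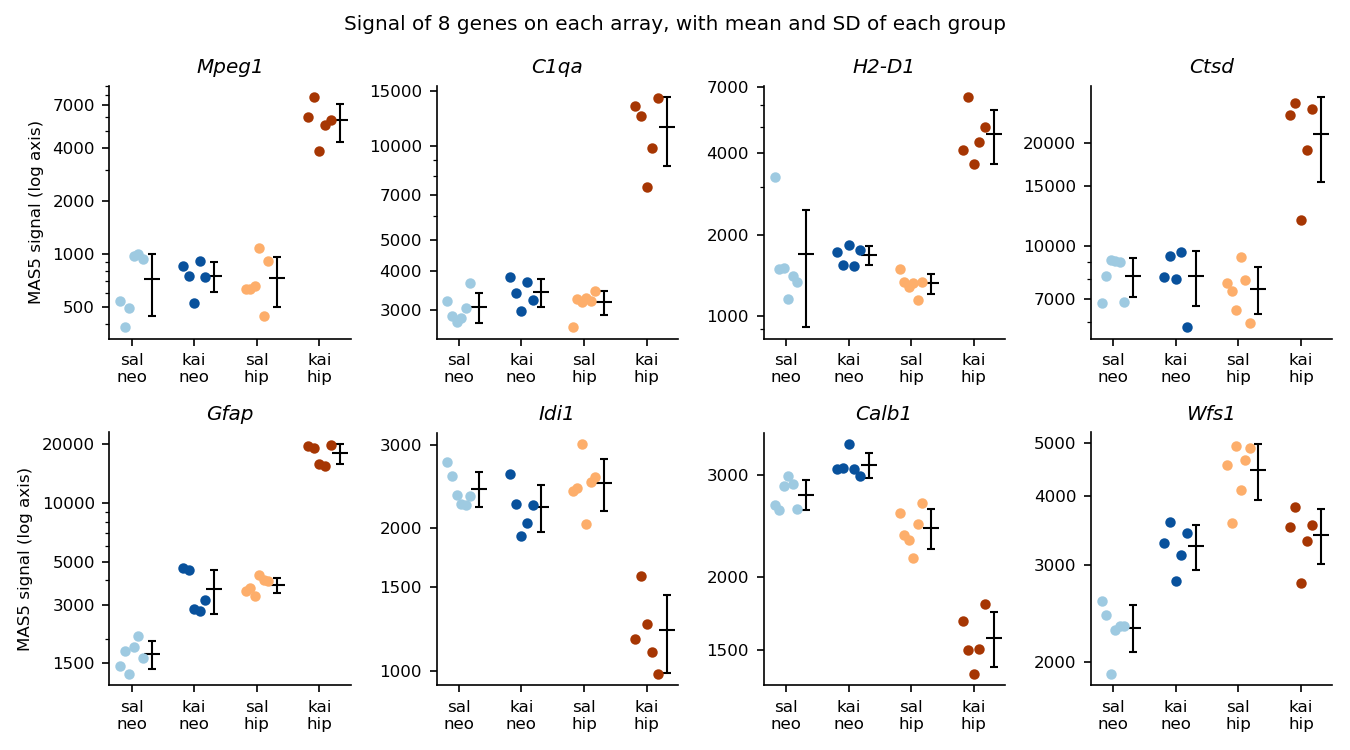
Signal (log axis) of 8 genes on each saline (sal) and kainate (kai) array of neocortex (neo) and hippocampus (hip), 6 saline and 5 kainate arrays a region; points are arrays, the bar beside them the mean with its SD. Mpeg1, C1qa, H2-D1 and Ctsd rise above all saline arrays only in the hippocampus, Gfap does so in both regions, Idi1 and Calb1 are low only in the hippocampus, and Wfs1 is high in the kainate neocortex.

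The 3 genes for the chains of C1q, the recognition molecule of the classical complement pathway, differed by nearly the same amount, and they are neighbours in the genome. C1qa read 13371, 12474, 7396, 9849 and 14257 in the kainate hippocampus against 2646, 3231 and 3457 with saline, and 3831, 3394, 2967, 3672 and 3234 in the kainate neocortex against 2737, 2960.0 and 3648. Its difference was 1.65 ± 0.16 (limma adjusted p = 1.09e-08). C1qb and C1qc differed by 1.56 ± 0.18 and 1.64 ± 0.24 (adjusted p = 3.43e-07 and 3.15e-05). C1qb also had a neocortical effect of 0.29 ± 0.13 at an unadjusted p of 0.0267, with overlapping arrays, and a second, dimmer C1qb probe set gave a difference of 0.22 ± 0.41 that was not called. On kainate hippocampus arrays the highest values of all 3 came from replicates 1, 2 and 5 and the lowest from replicate 3.

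Of 11 tested complement genes, 5 were higher in the kainate hippocampus (against 2.47% of all tested genes), none lower, and the 3 C1q genes differed between regions (against 0.824%); the median difference was 0.58. Serping1, the C1 inhibitor, and C3ar1, the receptor for the anaphylatoxin C3a, were called in the hippocampus with differences of 1.21 ± 0.37 and 1.17 ± 0.50, which were not called (limma adjusted p = 0.173 and 0.463). Cfb, a factor of the alternative pathway, had point estimates of -0.57 ± 0.45 in the hippocampus and 0.28 ± 0.45 in the neocortex, neither called.

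Of 18 tested lysosomal proteases, their inhibitors and membrane proteins, 13 were higher in the kainate hippocampus (against 2.47% of all tested genes) and none lower, and 7 differed between regions (against 0.824%), with a median effect of 0.73 in the hippocampus and 0.13 in the neocortex. Several of them, Cd68 included, are also strongly expressed by microglia. Ctss, a cysteine protease that processes antigen in microglia, read 15801, 14836, 8831, 11566 and 14532 with kainate against 2733, 2974 and 3369 with saline in the hippocampus. In the neocortex it read 4459.5, 4184, 4211, 4312 and 3782 against 2406, 3090.3 and 3348. The groups were apart in both regions. The neocortical effect of 0.49 ± 0.11 had an unadjusted p of 7.78e-05 and was not called over all probe sets (adjusted p = 0.16), while the control cluster block and array weights gave 0.0224 and 0.0268; the regional difference was 1.62 ± 0.15 (limma adjusted p = 8.77e-09).

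Ctsd, the main aspartic protease of the lysosome, had a neocortical effect of -0.0097 ± 0.15. Its hippocampal signals were 24080.0, 26093, 11949, 19086 and 25124 with kainate against 5976, 7595 and 9297 with saline, and its neocortical signals were 8121, 9354, 8017, 9614 and 5806 against 6844, 8583 and 9099.7. Neocortical kainate arrays spanned the saline range. The difference was 1.47 ± 0.21 (limma adjusted p = 3.2e-05).

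Ctsz, another cysteine protease, had a difference of 1.53 ± 0.37, whose call was lost in 10 of 22 fits that each left out 1 array (highest adjusted p = 0.0962). Smaller differences were called for Ctsb (0.72 ± 0.10), Npc2, a cholesterol carrier of the lysosome (0.79 ± 0.17), Man2b1, a mannosidase (0.67 ± 0.13), Ctse (0.79 ± 0.15) and Hexa, a hexosaminidase subunit (0.72 ± 0.17). A pair of dimmer Ctsb probe sets gave 0.19 ± 0.20 and 0.44 ± 0.25, neither called. The dimmer Man2b1 probe set gave 0.57 ± 0.39, not called. Grn, the precursor of progranulin, differed by 1.33 ± 0.18 (limma adjusted p = 1.74e-05), while its dimmer probe set gave 0.38 ± 0.60. By contrast Ctsl and Ctsk had hippocampal effects of 0.17 ± 0.21 and -0.25 ± 0.17, not called. Of the called lysosomal genes here, the Hexa call was lost in 9 of the 22 fits that left out 1 array (highest adjusted p = 0.1).

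Further genes with a hippocampus-only increase fall outside the groups above. Fermt3, an integrin activator of blood cells, differed by 1.32 ± 0.33, Selplg, a selectin ligand of leukocytes, by 0.79 ± 0.14, and Lyl1 and Cebpa, transcription factors of blood and myeloid cells, by 1.03 ± 0.24 and 0.58 ± 0.14. The signalling regulator Rgs10 differed by 0.81 ± 0.18, Lgals9, a galectin, by 1.01 ± 0.23, and AU020206 by 1.42 ± 0.35. Pros1, a ligand of phagocytic receptors, and Anxa5, which binds exposed phosphatidylserine, differed by 0.86 ± 0.22 and 0.59 ± 0.13. The remaining differences were 0.80 ± 0.20 for Zfp36l2, 0.71 ± 0.12 for Fxyd1, 0.71 ± 0.18 for Plxnb2, 0.69 ± 0.14 for Itgb5, 0.62 ± 0.14 for Tcn2 and 0.58 ± 0.14 for Dhrs1, with limma adjusted p from 0.000655 for Fxyd1 to 0.046 for Zfp36l2. Sgpl1 was called by 1 of its probe sets alone, not the brightest. Dimmer probe sets gave 0.35 ± 0.22 for Plxnb2, 0.24 ± 0.25 for Itgb5, 0.44 ± 0.30 for Rgs10 and 0.62 ± 0.55 for Lgals9. That of Zfp36l2 gave 0.90 ± 0.36, and none of these differences was called. Calls of Pros1, Zfp36l2, Fermt3, AU020206, Plxnb2, Dhrs1, Lyl1, Cebpa, Rgs10 and Lgals9 were lost in 18, 17, 15, 13, 10, 8, 7, 6, 2 and 1 of the 22 fits that left out 1 array (highest adjusted p from 0.0578 for Rgs10 to 0.126 for Pros1), the last without kainate hippocampus replicate 5.

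Genes of antigen presentation were led by the classical class I heavy chains H2-D1 and H2-K1. H2-D1 read 4113, 6414, 3654, 4382 and 4978 in the kainate hippocampus against 1149, 1333 and 1500.1 with saline. In the neocortex it read 1727, 1542, 1839, 1531 and 1759 against 1159, 1451 and 3272, where the highest saline value, of replicate 1, lay above every kainate array. The difference was 1.72 ± 0.23 (limma adjusted p = 1.22e-05), and a second H2-D1 probe set gave 1.90 ± 0.30 (adjusted p = 0.000155).

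H2-K1 read 4909, 6103, 3925, 4801 and 5793 with kainate against 916, 1353 and 2949 with saline in the hippocampus. In the neocortex it read 1477, 1707, 1560.1, 1652 and 1125 against 1172, 1515 and 3144. Saline replicate 1 was the highest saline array in both regions and overlapped no hippocampal kainate array. The difference was 1.93 ± 0.29 (limma adjusted p = 4.35e-05). Its other probe sets gave 1.53 ± 0.47 and 0.37 ± 0.55, not called. Class I genes are closely similar in sequence, and probes may detect more than 1 of them.

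Over the whole list, 7 of 15 tested antigen presentation genes were higher in the kainate hippocampus (against 2.47% of all tested genes) and 2 differed between regions (against 0.824%), with a median difference of 0.73. H2-K2 had the largest point estimate of any gene, 3.35 ± 0.92, but its saline neocortex values ranged from 113 to 2702 and the difference was not called (limma adjusted p = 0.0891). B2m, the class I light chain, and Psmb8, an immunoproteasome subunit, were called in the hippocampus with differences of 1.37 ± 0.38 and 1.32 ± 0.51 (adjusted p = 0.0947 and 0.367). Cd74, the class II invariant chain, had a hippocampal effect of 0.80 ± 0.22, which was called, and a difference of 1.0 ± 0.31, which was not. H2-Aa and H2-Ab1, class II chains, lay below the signal limit.

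Interferon-response genes were mixed. Of 16 tested, 8 were higher in the kainate hippocampus (against 2.47% of all tested genes) and 3, Ifit3, Lgals3bp and Ifitm3, differed between regions (against 0.824%); the median effect was 0.60 in the hippocampus and 0.25 in the neocortex. Ifit3, an interferon-induced RNA-binding family member, read 539, 1214, 694, 599 and 819.7 with kainate against 34.4, 73.85 and 283 with saline in the hippocampus, and 259.5, 379, 256, 231 and 341 against 125, 291 and 571 in the neocortex. Hippocampal groups did not overlap, neocortical groups did, and the saline neocortex median lay above the highest saline hippocampus array. The difference was 2.74 ± 0.50 (limma adjusted p = 0.0012).

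Lgals3bp, a secreted glycoprotein that binds galectins, read 2979.6, 1912, 1834, 2384 and 2679 against 412, 468 and 602 in the hippocampus and 775, 726, 601, 608 and 653 against 386, 588 and 654 in the neocortex. Only the hippocampal groups were apart, and the difference was 1.92 ± 0.23 (limma adjusted p = 1.44e-06). Ifitm3, a membrane protein that restricts viral entry, differed by 1.15 ± 0.22 (adjusted p = 0.00211). Isg15, Irf7 and Gbp3 were called in the hippocampus with differences of 1.20 ± 0.64, 0.90 ± 0.29 and 1.0 ± 0.47 that were not called. Irf9 and Irf1 had similar point estimates in both regions, 0.36 ± 0.29 and 0.45 ± 0.29 for Irf9 and 0.39 ± 0.29 and 0.29 ± 0.29 for Irf1, none called.

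The promoter windows of these genes were searched for the core of the interferon-stimulated response element, a pair of GAAA runs separated by any 2 bases, on both strands, because interferon-induced genes were among the largest differences. RefSeq promoter windows (GRCm38.p6, 250 bases before to 50 after each transcript start) were found for 40 of the 52 genes with a hippocampus-only increase at any probe set (51 by their brightest one, and Sgpl1), and 5 of the 40 (12.5%) held the motif in at least 1 window: Ifit3, Ifitm3, Ctss, Lgals9 and Tcirg1. It was present for 186 of 5169 tested genes with a window (3.6%) and 1079 of all 27025 genes in the table (3.99%). Windows of Ifit3 (chr19:34583279-34583578, plus strand), Ifitm3 (chr7:141010695-141010994, minus strand) and Ctss (chr3:95526536-95526835, plus strand) are printed 5′ to 3′ on the gene's strand, with matches in capitals.
Ifit3: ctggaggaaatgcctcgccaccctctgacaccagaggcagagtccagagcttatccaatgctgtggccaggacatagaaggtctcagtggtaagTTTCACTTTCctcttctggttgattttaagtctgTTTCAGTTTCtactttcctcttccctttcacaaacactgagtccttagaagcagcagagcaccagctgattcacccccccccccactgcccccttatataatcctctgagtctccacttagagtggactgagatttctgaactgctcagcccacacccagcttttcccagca
Ifitm3: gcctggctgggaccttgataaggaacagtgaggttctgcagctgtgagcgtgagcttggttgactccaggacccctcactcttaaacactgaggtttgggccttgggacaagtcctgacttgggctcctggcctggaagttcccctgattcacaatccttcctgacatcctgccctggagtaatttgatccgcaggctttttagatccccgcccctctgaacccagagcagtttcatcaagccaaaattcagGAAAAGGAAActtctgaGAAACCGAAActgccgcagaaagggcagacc
Ctss: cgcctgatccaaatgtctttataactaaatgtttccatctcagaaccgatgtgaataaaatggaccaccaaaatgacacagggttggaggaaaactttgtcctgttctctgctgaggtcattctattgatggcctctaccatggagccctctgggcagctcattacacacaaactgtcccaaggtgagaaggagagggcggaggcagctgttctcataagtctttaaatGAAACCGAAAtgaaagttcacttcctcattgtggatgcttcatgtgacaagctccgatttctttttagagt
The Ifit3 window holds 2 matches before the transcript start, both on the opposite strand. Ifitm3 has 2 just after the start, and Ctss has 1 just before it. The lysosomal motif TCACGTG was present for 2 of the 40 genes, Ctsd and S100a6 (5.0%, against 7.45% of tested genes), and the macrophage factor motif GAGGAAGT for C1qc and Ctss (5.0% against 3.31%). In the Ctss window the GAGGAAGT match does not overlap the interferon element match. A match describes the sequence only.

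The leading astrocyte gene rose in both regions. Gfap, the intermediate filament of astrocytes, read 19470.2, 19141, 15902, 15433 and 19751 in the kainate hippocampus against 3345, 3818 and 4273 with saline. In the neocortex it read 4637, 4526, 2840.3, 2792 and 3174 against 1332, 1669.5 and 2083. Kainate arrays lay above all saline arrays in both regions, and neocortical replicates 1 and 2 were well above the other 3. The effects were 2.23 ± 0.12 in the hippocampus and 1.07 ± 0.12 in the neocortex (limma adjusted p = 5.76e-16 and 1.92e-06). The difference of 1.16 ± 0.17 (95% interval 0.81 to 1.51) was called (adjusted p = 4.35e-05). A second, dimmer Gfap probe set gave 1.82 ± 0.17 and 0.83 ± 0.17, where the neocortical effect missed the threshold (adjusted p = 0.0822) and the difference passed it (0.0303).

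Of 19 tested genes of reactive astrocytes, 8 were higher in the kainate hippocampus (against 2.47% of all tested genes), 1 (Gfap) in the kainate neocortex, and 6 differed between regions (against 0.824%); the median difference was 0.41. Serpina3n, a secreted protease inhibitor of the acute phase, read 9183, 9483, 7075, 8262 and 9403 against 2187, 2841 and 3485 in the hippocampus and 1244, 1472, 1211, 1511 and 1209 against 825, 1069.5 and 1236 in the neocortex. Neocortical groups overlapped only narrowly, with an effect of 0.33 ± 0.12 (unadjusted p = 0.0118), and the difference was 1.28 ± 0.17 (limma adjusted p = 1.22e-05). S100a6, a calcium-binding protein, differed by 1.16 ± 0.16, again with a neocortical effect at a low unadjusted p (0.38 ± 0.11, limma unadjusted p = 0.002). S100a10 differed by 1.01 ± 0.18, although its dim second probe set gave -0.31 ± 0.43.

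The metallothioneins Mt1 and Mt2, which bind zinc and copper, had small differences of 0.41 ± 0.10 and 0.46 ± 0.11 (limma adjusted p = 0.0423 and 0.0423). Their calls were lost in 15 and 13 of the 22 fits that left out 1 array (highest adjusted p = 0.118 and 0.125). Vim, Timp1, Lcn2 and Nes of the same list had hippocampal effects of -0.023 ± 0.44, 0.067 ± 0.25, 0.039 ± 0.17 and 0.17 ± 0.16, none called.

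Of 19 tested general astrocyte genes, 8 were higher and 1 lower in the kainate hippocampus (against 2.47% and 1.71% of all tested genes), and Apoe and Clu differed between regions (against 0.824%); the median difference was 0.28. Apoe, the main lipid carrier of the brain, read 63863, 84231, 69825, 68031 and 70379.8 against 42134, 49472 and 54904 in the hippocampus and 38103, 35745, 35159, 37654 and 41989 against 35102, 38235 and 44664 in the neocortex. Hippocampal groups were apart and neocortical groups overlapped, and the difference was 0.60 ± 0.11 (limma adjusted p = 0.0012). Clu, a secreted chaperone, differed by 0.64 ± 0.15 (adjusted p = 0.0199); the call was lost without kainate neocortex replicate 2, kainate hippocampus replicate 2 or kainate hippocampus replicate 5 (highest adjusted p = 0.065). The second Clu probe set had a hippocampal effect of 0.78 ± 0.085 and a neocortical one of 0.20 ± 0.085. Gja1, a gap junction protein, and Aqp4, the water channel of astrocytic endfeet, were called in the hippocampus with differences of 0.61 ± 0.20 and 0.54 ± 0.19 that were not called.

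**Figure D3:**
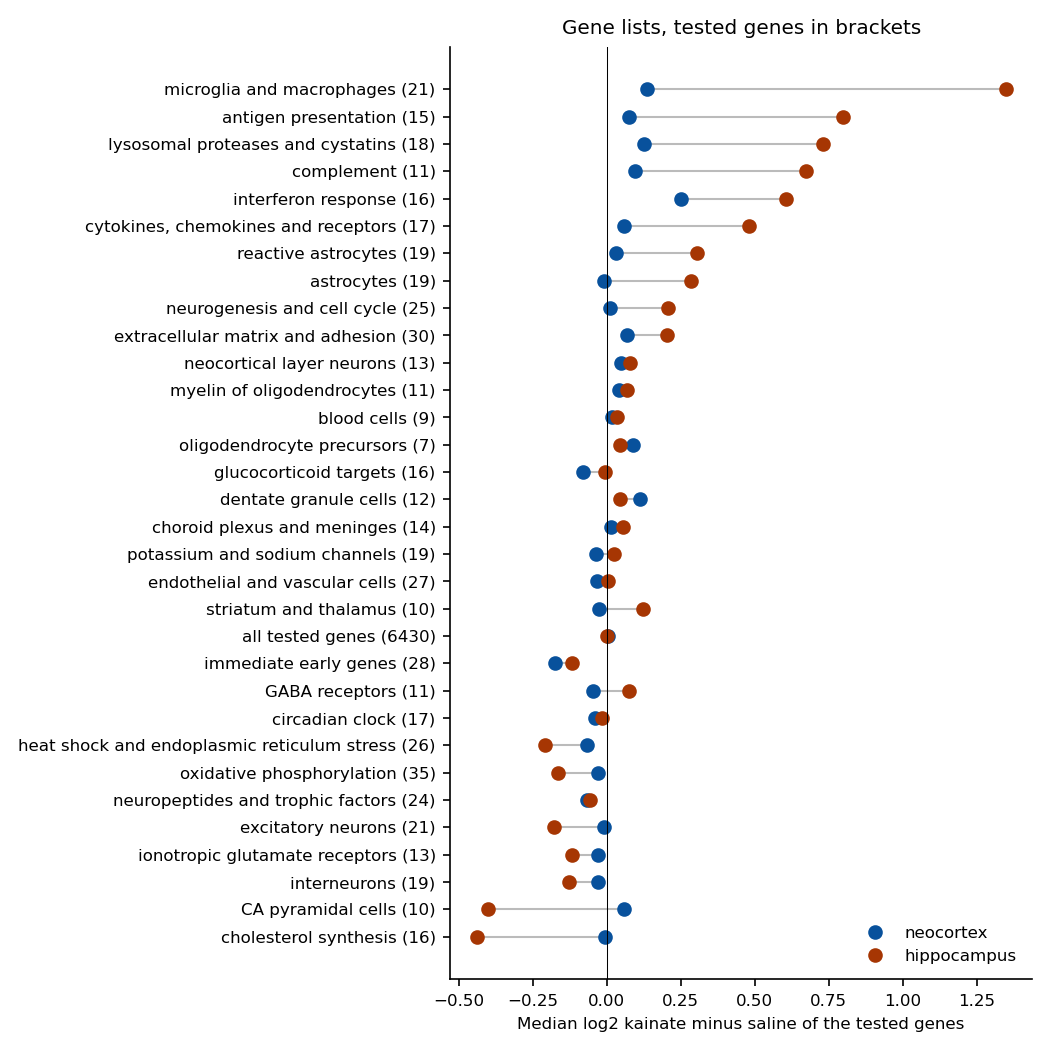
Median kainate effect (log2 kainate minus saline) of the tested genes of each list in the hippocampus and in the neocortex, lists ordered by their median difference, with the number of tested genes in brackets. Microglial, antigen presentation, lysosomal and complement lists have hippocampal medians of 0.67 to 1.35 and neocortical medians near 0, while the CA pyramidal cell and cholesterol synthesis lists are at -0.40 and -0.44 in the hippocampus.

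Of the 6 genes with a lower difference, Calb1, Wfs1 and Cpne6 belonged to lists of hippocampal neurons. Calb1, the calcium buffer of dentate granule cells and of some CA and neocortical neurons, read 1685, 1499.8, 1368, 1507 and 1801 in the kainate hippocampus against 2162, 2418 and 2684 with saline. In the neocortex it read 3075, 3084, 3389.9, 3067 and 2990.3 against 2616, 2767 and 2993. Hippocampal kainate arrays all lay below saline, while the neocortical values overlapped at the saline maximum. The effects were -0.63 ± 0.086 and 0.17 ± 0.086, and the difference of -0.80 ± 0.12 (95% interval -1.04 to -0.55) had a limma adjusted p of 6.49e-05.

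Wfs1, an endoplasmic reticulum protein and a marker of CA1 pyramidal cells, had opposite point estimates. Its hippocampal signals were 3511, 3817, 2781, 3315 and 3542 with kainate against 3569, 4600.4 and 4931 with saline, an overlap at the lowest saline array. Its neocortical signals were 3282, 3584, 2799, 3119.5 and 3419 against 1904, 2326 and 2578, with every kainate array above every saline array. The hippocampal effect was -0.39 ± 0.11 (limma adjusted p = 0.0407) and the neocortical one 0.49 ± 0.11 (unadjusted p = 0.00011, adjusted p = 0.16). The difference of -0.88 ± 0.16 was called (adjusted p = 0.00109) and stayed called when any 1 array was left out. The hippocampal call alone was lost without saline replicate 1, 3, 5 or 6 or kainate replicate 1, 3, 4 or 5 of the hippocampus (adjusted p 0.0593 to 0.15). It was also lost with no filter, quantile normalization, array weights, no intensity trend and the largest control clusters (adjusted p = 0.0505, 0.0596, 0.0528, 0.0598 and 0.305). With control clusters as a block both regional effects were called, at adjusted p = 0.03 and 0.0402, as they were with the replicate number as a fixed term (0.0456 and 0.043).

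Cpne6, a calcium-dependent membrane-binding protein of forebrain neurons, read 12172, 12725, 13744, 11879 and 11181 against 15641, 16959 and 18979 in the hippocampus and 5703, 4939, 5529.8, 7060.4 and 6383 against 5183, 5525 and 6419.8 in the neocortex. Its hippocampal groups were apart, and the difference was -0.52 ± 0.12 (limma adjusted p = 0.0216); the call was lost without kainate neocortex replicate 4, kainate neocortex replicate 5 or kainate hippocampus replicate 5 (highest adjusted p = 0.0644). Cdk14, a cyclin-dependent kinase, differed by -0.58 ± 0.13 (adjusted p = 0.0226), lost without kainate neocortex replicate 3 or 5 or kainate hippocampus replicate 2 or 4 (highest adjusted p = 0.0731). A dimmer Cdk14 probe set gave 0.17 ± 0.36, not called.

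Of 10 tested CA pyramidal cell genes, 4 were lower in the kainate hippocampus (against 1.71% of all tested genes) and none higher, and Wfs1 and Cpne6 differed between regions (against 0.0933% for a lower difference); the medians were -0.40 in the hippocampus and 0.059 in the neocortex. Their summed signal was 35438 to 40042 on saline and 26260 to 32325 on kainate hippocampus arrays, and 16806 to 18393 on saline and 18297 to 19045 on kainate neocortex arrays. Crym and Epha7 were the other members called lower in the hippocampus, with differences of -0.73 ± 0.20 and -0.58 ± 0.22 that were not called (limma adjusted p = 0.0993 and 0.341). Of 12 tested dentate granule cell genes, 1 was higher and 1 lower. Penk, an opioid peptide precursor, was the higher one: 3986, 2848, 3009.8, 3667 and 2830.2 against 1275, 1756 and 2391 in the hippocampus, with a neocortical effect of -0.28 ± 0.21. Its difference of 1.15 ± 0.30 was just outside the threshold (adjusted p = 0.0518). A second, dimmer Penk probe set had a hippocampal effect of 0.40 ± 0.34 and a difference of 0.44 ± 0.48, neither called. Penk also belonged to the striatum and thalamus list. Prox1, the transcription factor that marks granule cells, had effects of 0.41 ± 0.42 and 0.17 ± 0.42, neither called. Among 21 general excitatory neuron genes, 1 was lower in the hippocampus and no difference was called.

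Cholesterol synthesis supplied 2 of the 6 lower differences. Idi1, an isomerase of the mevalonate pathway, read 1170.2, 1589, 1253, 1095 and 987 in the kainate hippocampus against 2047, 2464 and 3013 with saline, and 2599, 2250.2, 1926, 2056 and 2239.9 in the kainate neocortex against 2244, 2344 and 2766. The hippocampal groups did not overlap and the neocortical ones did. Its difference was -0.90 ± 0.17 (95% interval -1.25 to -0.55, limma adjusted p = 0.00209). Msmo1, a sterol methyl oxidase, had hippocampal values of 1012, 1314, 652, 928 and 725 against 1186, 1499 and 1735, which overlapped, and neocortical values of 1765, 1952, 1822, 1476 and 1278 against 996, 1361 and 1928. The difference was -0.91 ± 0.23 (adjusted p = 0.0423), and its call was lost in 15 of the 22 fits that left out 1 array (highest adjusted p = 0.117).

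Of 16 tested genes of the pathway, 7 were lower in the kainate hippocampus (against 1.71% of all tested genes) and none higher, with medians of -0.44 there and -0.0062 in the neocortex. The other 5 were Hmgcs1, Fdft1, Sqle, Fdps and Dhcr7, with hippocampal effects of -0.54 ± 0.15, -0.57 ± 0.15, -0.60 ± 0.14, -0.62 ± 0.099 and -0.51 ± 0.14. Hmgcs1, the synthase that feeds the pathway, had a neocortical point estimate in the other direction (0.29 ± 0.15) and a difference of -0.82 ± 0.21 just outside the threshold (limma adjusted p = 0.0518). Lss, Mvk and Ebp had hippocampal effects of -0.034 ± 0.31, 0.0050 ± 0.18 and 0.021 ± 0.16. Of the 6 genes with a hippocampus-only decrease, from this pathway or not, 4 had a promoter window. None of these windows held the sterol element TCACNCCAC, which was present for 1.68% of tested genes. The genes of the pathway were not searched as a set.

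**Figure D4:**
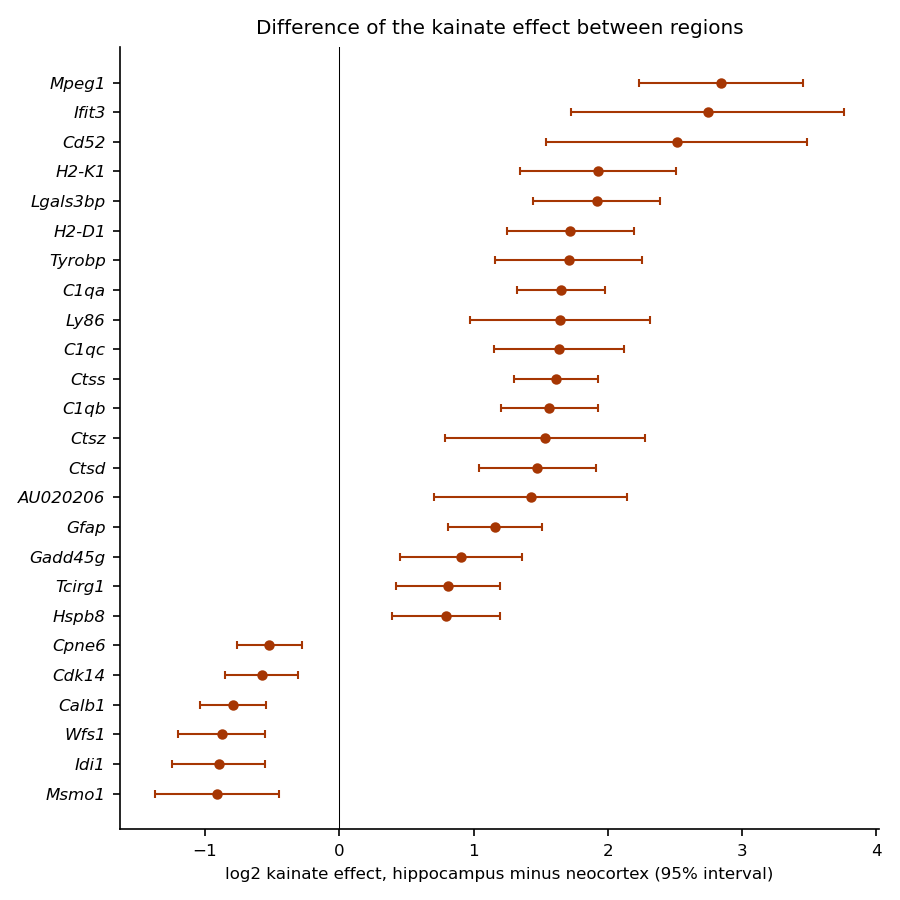
Difference of the kainate effect (log2, hippocampus minus neocortex) with its 95% interval for the named genes with the highest and lowest called differences, Gfap, and the genes with opposite point estimates. Mpeg1, Ifit3 and Cd52 lie highest, from 2.84 to 2.51, and Msmo1, Idi1 and Wfs1 lie lowest, between -0.91 and -0.88.

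Opposite point estimates were found at 30 of the 69 called differences, 25 with the hippocampus higher and 5 with it lower. At 4 of the 30 the neocortical effect had an unadjusted p under 0.05, and this share is to be read against 5.13% of all tested probe sets, bearing in mind that the selection on the difference favours it. These were Wfs1, Gadd45g, Tcirg1 and 1 of 2 Ctse probe sets. Gadd45g, a stress-induced gene linked to DNA demethylation, read 911, 1178, 825, 993 and 838 against 569, 667 and 878 in the hippocampus and 457, 577, 499, 544 and 339.8 against 575, 665 and 868 in the neocortex. Groups overlapped in both regions, and the effects of 0.41 ± 0.16 and -0.49 ± 0.16 were not called (limma adjusted p = 0.167 and 0.742). The difference of 0.90 ± 0.22 was called (adjusted p = 0.0407), but no longer in 14 of the 22 fits that left out 1 array (highest adjusted p = 0.116).

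Tcirg1, a subunit of the lysosomal proton pump, had effects of 0.53 ± 0.14 and -0.28 ± 0.14, and its difference of 0.81 ± 0.19 was lost in 8 of the 22 fits (highest adjusted p = 0.0741). Hspb8, a small heat shock protein, had 0.53 ± 0.14 and -0.26 ± 0.14, with a difference of 0.79 ± 0.20 lost in 13 of the 22 (highest adjusted p = 0.121). Nfe2l2, the regulator of antioxidant genes, was called in the hippocampus at 0.89 ± 0.14 with a neocortical estimate of -0.10 ± 0.14; its difference of 1.0 ± 0.20 (limma adjusted p = 0.00435) stayed called when any 1 array was left out.

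Responses of similar size in both regions could be described only in part, since the neocortex passed the test for Gfap alone. Of the 270 undecided probe sets, 32 had a neocortical unadjusted p under 0.05 in the direction of the hippocampus, 16 higher and 16 lower, and none in the other direction; over all tested probe sets 5.13% had such a p in either direction. The class leaves out called differences, so this count is no test of sharing. The genes named here were picked by this neocortical p, after the values were seen.

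Somatostatin and cortistatin, 2 related peptides of interneurons, were lower in the hippocampus and had lower point estimates in the neocortex. Sst read 5288, 6576, 6544, 6355 and 6404 against 9321, 10549 and 12107 in the hippocampus and 8573, 7901, 5891, 10889.9 and 10206 against 9251, 10954 and 12067 in the neocortex. Cort read 272, 389, 137, 169 and 145 against 414, 485 and 599, and 437, 404, 284, 391 and 612 against 549, 738 and 842. Both were separated from saline in the hippocampus and overlapped it in the neocortex. The differences of -0.42 ± 0.16 (95% interval -0.75 to -0.099) for Sst and -0.40 ± 0.30 (-1.01 to 0.21) for Cort were not called. Of 19 tested interneuron genes, 4 (Sst, Cort, Cck and Slc32a1, the vesicular GABA transporter) were lower in the hippocampus (against 1.71% of all tested genes), 1 (Npy) higher (against 2.47%), and no difference between regions was called. Pvalb and Vip, which mark other interneuron types, had hippocampal effects of -0.0043 ± 0.12 and -0.12 ± 0.22.

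Nr4a1, an immediate early transcription factor, read 1056, 735, 1008, 782 and 865 against 1123, 1541 and 2094 in the hippocampus and 2341, 2583, 2159, 1629 and 1362 against 2213, 3165 and 4046 in the neocortex. Its effects were -0.77 ± 0.20 and -0.64 ± 0.20, the second not called (limma adjusted p = 0.679), and the 95% interval of the difference was -0.69 to 0.43. Dio2, the enzyme that activates thyroid hormone in astrocytes, had similar point estimates, -0.42 ± 0.11 and -0.48 ± 0.11; neocortical kainate arrays of 2390.1, 2120.3, 2201, 2349 and 1896 all lay below saline (2794, 3054 and 3495), while hippocampal ones of 1439, 1886, 1542, 1379 and 1740.2 overlapped it (1822, 2242 and 2397). Of 28 tested immediate early genes, 3 (Egr1, Nr4a1 and Rasd1) were lower in the hippocampus (against 1.71% of all tested genes), and Fos and Dusp1 had effects of -0.57 ± 0.31 and -0.38 ± 0.20 there and -0.55 ± 0.31 and -0.38 ± 0.20 in the neocortex, none called.

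Of the increases, Kcne1l, a potassium channel subunit, read 855, 1219.5, 1015, 989.6 and 1067 against 126, 248 and 430.3 in the hippocampus and 245, 246, 215, 253 and 476 against 72.7, 94.85 and 272 in the neocortex. Its effects were 1.99 ± 0.32 and 1.18 ± 0.32, and the 95% interval of the difference ran from -0.099 to 1.72. A2m, a broad protease inhibitor, had 1.75 ± 0.36 and 0.87 ± 0.36; Lag3, an inhibitory receptor of lymphocytes that microglia also express, had 2.93 ± 0.45 and 0.97 ± 0.45; and Sparc and Ptprz1, a matrix protein and a phosphatase of astroglia, had 0.63 ± 0.15 and 0.35 ± 0.15, and 0.50 ± 0.13 and 0.31 ± 0.13. None of these neocortical effects or differences was called. The Lag3 point estimates were unequal, with a difference of 1.96 ± 0.64 (95% interval 0.66 to 3.26, limma unadjusted p = 0.00428).

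**Figure D5:**
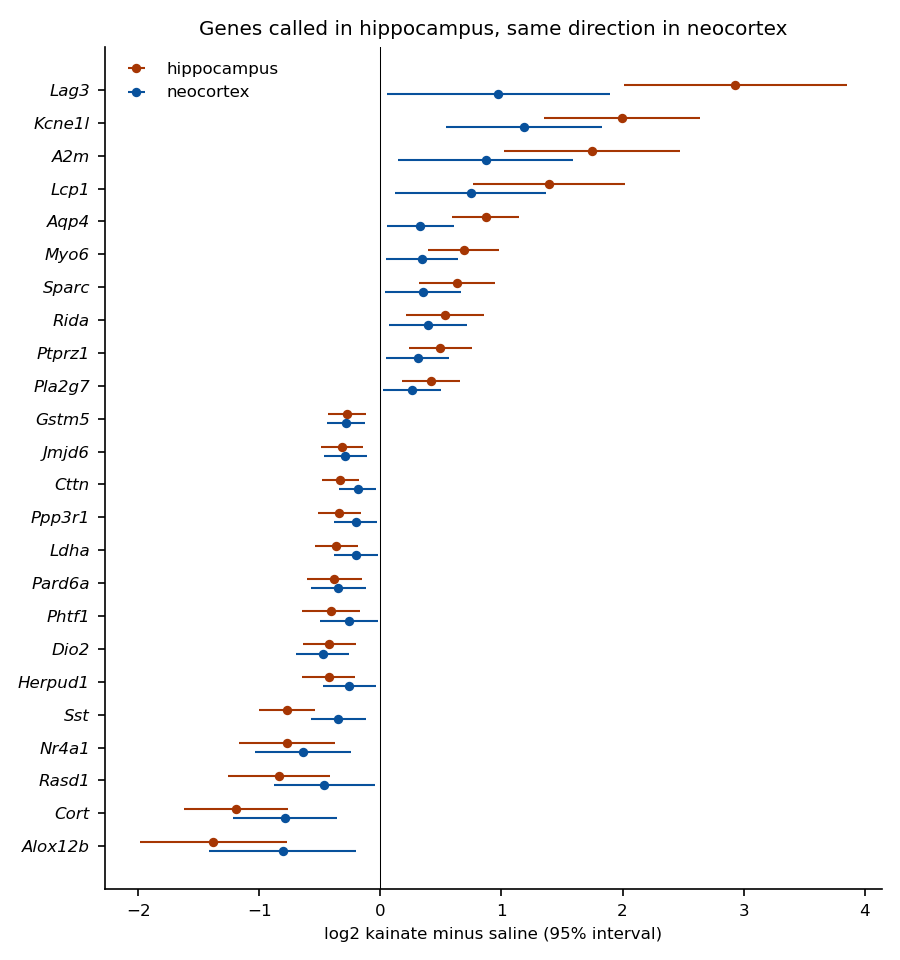
Kainate effect (log2 kainate minus saline) with its 95% interval in the hippocampus and neocortex for the named genes called in the hippocampus, with the regional difference not called and a neocortical unadjusted p under 0.05 in the same direction. From Lag3 to Alox12b the neocortical estimates lie on the same side of 0 as the hippocampal ones, which the choice of these genes fixes.

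A mean of both regional effects, added after the data were seen, was called at 211 probe sets (2.43%), of which 34 were called in neither region and not for the difference, 9 higher and 25 lower. Hsd11b1, which regenerates active glucocorticoid, read 627, 836, 820.2, 782 and 938 against 955, 994 and 1235 in the hippocampus and 637, 562, 663, 661 and 612 against 767, 966 and 1327 in the neocortex, with kainate below saline throughout. Its mean effect was -0.50 ± 0.11 (limma adjusted p = 0.00387), and the 95% interval of the difference was -0.23 to 0.64. Vegfa, a vascular growth factor, and P4ha1, a collagen hydroxylase, had mean effects of -0.50 ± 0.14 and -0.36 ± 0.085 (adjusted p = 0.0384 and 0.0128). Pygm, a glycogen phosphorylase, had -0.39 ± 0.092 (0.0109). F2r, a thrombin receptor, and Hfe, an iron-regulating class I-like protein, were higher, at 0.91 ± 0.23 and 0.82 ± 0.22 (0.0205 and 0.0368).

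Lists of other cell types are small beside the 0.824% of tested genes with a higher and 0.0933% with a lower difference, so that few or no calls say little about them. None of 11 tested myelin genes was called in any contrast, with a median difference of 0.095. Among 27 endothelial and vascular genes 2 were higher in the hippocampus and none differed between regions. Of 9 tested blood cell genes, 1, Ighm, differed (0.63 ± 0.15, limma adjusted p = 0.0219), while the markers Cd3e, Cd3g, Cd8a, Cd79b, S100a8 and S100a9 lay below the signal limit; the Ighm call was lost without kainate hippocampus replicate 2 or 5 and in 4 further fits of the 22 (highest adjusted p = 0.0601). Dimmer Ighm probe sets gave differences of -0.017 ± 0.68 and 0.56 ± 0.29, neither called. Choroid plexus and meningeal genes, 14 tested, had none called. Of 17 cytokines, chemokines and receptors, 5 were higher in the hippocampus and none differed between regions; Ccl9, a chemokine of myeloid cells, had a difference of 1.60 ± 0.42 (adjusted p = 0.065).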

How the data were processed

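Total RNA (12 µg) of each mouse's neocortex and hippocampus was hybridised to its own Affymetrix array. The deposited intensity values are linear MAS5 signals, as the submitters' processing notes name the tool without a version. The trimmed mean of every array was 1000.5 to 1000.6. There is no read depth. Precision is limited by the number of arrays, and the regional difference had a median standard error of 0.24 (log2).

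Values were taken as log2(signal + 16), so fold changes of dim genes are understated. After 66 control probe sets and the lowest 30% by mean level were left out, 8695 probe sets were fitted with limma 3.58.1 (R 4.3.3; 34 arrays in 6 groups, intensity trend), and p-values were adjusted by Benjamini-Hochberg over all of them in each contrast, called at 0.05. Genes are named by probe sets with 1 symbol in the platform annotation (10833 of 12488; 396 with several symbols, 1193 with none), with 10817 matched to RefSeq by gene number. A gene is represented by its probe set with the highest mean level. Gene lists (33, with 776 entries) and their members were chosen with earlier results of these data known, and no list was tested. Named genes were the 15 highest and 15 lowest called differences, shared, opposite and neocortex-only responses by size, and up to 4 members of each list by the p of the difference; others are named as chosen after their values were seen, as are near misses and the remaining called genes.

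The labels call the replicates biological. The fit was checked on simulated arrays with known differences and independent errors. Such arrays hold no clusters and no shared mice, so the check does not cover these. Pseudocounts, filters, scaling, blocks, array weights, the 22 saline and kainate arrays alone, single arrays left out and a stricter threshold were tried as alternatives. Figures used matplotlib.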

Additional observations from a re-analysis of the deposited data

Results flagged for a closer look

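Single arrays stood apart within their group for 7 of 152 groups of arrays examined over 38 genes, where chance sets apart about 1 in 20, or 7.6. H2-D1 was high on saline neocortex replicate 1 (3271.5 signal units), and H2-K1 was high on saline replicate 1 of both the hippocampus (2949.1) and the neocortex (3143.5). C1qa was low on saline hippocampus replicate 1 (2645.8) and Mt1 was low on saline neocortex replicate 4 (13012.7). Cdk14 was low on kainate neocortex replicate 4 (2155.7), and Calb1 was high on kainate neocortex replicate 3 (3389.9).

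The kainate effect differed between the hippocampus and the neocortex by the test of the difference itself for the genes below, given as log2 hippocampus minus neocortex. Microglial and complement genes were higher by 2.84 for Mpeg1, 2.51 for Cd52, 1.71 for Tyrobp, 1.64 for Ly86, 1.31 for Laptm5, 1.26 for Cd68, 1.65 for C1qa, 1.64 for C1qc and 1.56 for C1qb. Interferon and class I genes were higher by 2.74 for Ifit3, 1.92 for Lgals3bp, 1.15 for Ifitm3, 1.93 for H2-K1 and 1.72 for H2-D1. Lysosomal genes were higher by 1.62 for Ctss, 1.53 for Ctsz, 1.47 for Ctsd, 0.81 for Tcirg1 and 0.72 for Ctsb. Astrocyte genes were higher by 1.28 for Serpina3n, 1.16 for S100a6, 1.16 for Gfap, 1.01 for S100a10, 0.64 for Clu, 0.60 for Apoe, 0.46 for Mt2 and 0.41 for Mt1. The remaining increases were 1.42 for AU020206, 0.90 for Gadd45g, 0.79 for Hspb8, 0.69 for Itgb5 and 0.63 for Ighm. Lower differences were -0.91 for Msmo1, -0.90 for Idi1, -0.88 for Wfs1, -0.80 for Calb1, -0.58 for Cdk14 and -0.52 for Cpne6.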

How the results depend on the processing

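No named called difference changed sign in any of 36 alternatives, 22 of which left out 1 array. Of the 69 called differences, 45 were called in all 22, 24 in all 36, and 35 in all but the fit to the largest control cluster of each region. A probe set that a fit did not test counted as not called, as did those of Ifit3 and Cd52 with the filter at the 50th percentile. With 1 array left out the calls ranged from 48 to 79 (44 to 68 higher, 4 to 11 lower), hippocampal calls from 246 to 353, neocortical calls and shared responses from 1 to 4, hippocampus-only responses from 45 to 73, opposite point estimates from 18 to 36 and undecided ones from 178 to 292; neocortex-only stayed at 0. A filter at the 50th percentile gave 10 lower differences. Median centring gave 35 higher and 12 lower differences, 558 hippocampal calls and 511 undecided. Calls lost with it included some that no left-out array removed, among them those of Cyba, Npc2, Man2b1, Itgb5, Anxa5 and Tcn2. Array weights gave 11 lower differences and 4 neocortical calls and shared responses. The 22 saline and kainate arrays alone gave 53 calls, 48 of them among the 69. That fit had 285 hippocampal calls, 51 hippocampus-only, 20 opposite and 233 undecided. Among the calls lost in it were those of Clu, Cpne6, Cdk14, Lgals9, Tcn2, Rgs10 and Ighm. No set of pairs correlated above 0.1 throughout, so the numbers were not taken to pair the arrays. That limit was a choice, and it cannot show that same-numbered arrays came from different mice. Same-numbered arrays of the regions correlated at -0.0952 to 0.0733 in 5 kainate pairs and -0.137 to 0.147 in 6 saline pairs. Those of saline and kainate correlated at -0.0542 to 0.263 in the hippocampus (2 of 5 pairs over 0.1) and -0.172 to 0.199 in the neocortex (3 of 5). Control clusters held the same replicate numbers in every treatment in the hippocampus, and in the neocortex apart from number 5. The replicate block with the number as a fixed term gave 79 calls, 12 of them lower, 5 neocortical calls and 4 shared; with treatment and number as a random block there were 70 calls, and as a fixed block 59, a fit that gives no regional effects. The control cluster block gave 102 calls, 25 lower, 5 neocortical calls, 4 shared and 49 opposite. The largest control cluster of each region, added after seeing the data, gave 32 calls, 26 higher, with 127 hippocampal calls, 32 hippocampus-only, 18 opposite and 94 undecided, from 12 arrays. At an adjusted p under 0.01 there were 41 calls (38 higher, 3 lower), 173 hippocampal calls, 39 hippocampus-only, 15 opposite and 133 undecided. Why the counts moved was not tested. Dim probe sets, such as those of Ifit3, Cd52, Lag3 and A2m, have wide intervals, and no detection calls were used.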

Other observations

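Oxidative phosphorylation genes were described in no comparison above: of 35 tested, 3 were lower in the kainate hippocampus and none higher, with a median effect of -0.17 there and -0.028 in the neocortex, and no difference between regions was called (median -0.12). Heat shock and endoplasmic reticulum stress genes had 1 of 26 higher and 2 lower in the hippocampus, with median effects of -0.21 there and -0.065 in the neocortex, and Hspb8 differed between regions. Of 25 genes of neurogenesis and the cell cycle, 1 was higher in the hippocampus (median effect 0.21), and of 30 genes of the extracellular matrix and adhesion 5 were higher and 1, Itgb5, differed between regions. Ionotropic glutamate receptor genes, 13 tested, had none called in any contrast, with medians of -0.12 in the hippocampus and -0.030 in the neocortex, and 17 circadian clock genes had none called. Of all 6430 tested genes, 2.47% were higher and 1.71% lower in the hippocampus, and 0.824% had a higher difference.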
